A study of Mus musculus with 7 samples.

Results

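The genes described here are 48 genes of the centromere, kinetochore, spindle checkpoint, mitotic kinases, anaphase control and condensin, taken by symbol from a list of such genes. All 48 were found among the 56953 genes of each count file, and all 48 passed the filter on low counts. RNA came from B16 tumours, grown from a mouse melanoma cell line, taken 5 days after treatment and sorted for live cells that lacked CD45, carried by leukocytes, and CD31, carried by endothelium. AAV-iIL12 libraries (n = 3) came from tumours that received radiotherapy (RT, 8 Gy) plus AAV-iIL12, and AAV-iLuc libraries (n = 4) from tumours that received the same RT plus AAV-iLuc. AAV is adeno-associated virus, used to deliver genes, and the vector names refer to interleukin 12 and luciferase. All 7 tumours had thus been irradiated and given a vector, and no untreated tumour is compared here. Each library is taken as 1 mouse, as in the design text. Strain and age of the mice are not given in the labels. The titles of the AAV-iIL12 samples alone carry the letters WT, which the labels do not explain, so a difference in genotype between the groups, if there was one, cannot be told apart from the vector.

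Mitosis moves copied chromosomes into daughter cells through the kinetochore, a protein assembly built on centromeric chromatin that holds spindle microtubules. The spindle checkpoint delays anaphase until every kinetochore is attached. Mitotic kinases such as Plk1 and the Aurora kinases drive entry into mitosis and correct faulty attachments, and condensin compacts the chromosomes. Most of these genes are transcribed in waves, silent in resting cells and high in late S, G2 and M phase, so their mRNA follows the number of dividing cells in a sample. A few, here called constitutive (Cenpb, Cenpc1, Cenpt, Bub3 and Mad1l1), are generally described as transcribed through the cycle. The other 43 are called cycle-driven. This division comes from general knowledge of these genes, but it was made with earlier results of these data known.

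Marker genes put melanoma cells at the centre of the sort. The 7 melanocyte markers summed to between 27845 and 28742 CPM (counts scaled to a common library size) in AAV-iIL12 libraries. In AAV-iLuc libraries they summed to 22839 to 25991 CPM. Of these markers 3 were called higher in AAV-iIL12 (edgeR, adjusted p under 0.05), where 23.5% of all tested genes were higher and 23.7% were lower. The 14 leukocyte markers summed to 24.6 to 31.1 CPM in AAV-iIL12 libraries, against 15.4 to 30.9 CPM in AAV-iLuc libraries, with 0 of the 6 tested called, and Ms4a1 had no count in any library. Cd68 alone gave 13.9 to 21.2 CPM of these sums. Lyz2 had 4.33, 2.88 and 2.31 CPM in AAV-iIL12, against 6.50, 0.164, 0.536 and 0.979 CPM in AAV-iLuc. Ptprc had 2.25, 2.44 and 1.04 CPM, against 2.44, 0.164, 0.0596 and 0.412 CPM. Cd8a, not tested, had 0.366, 0.217 and 0.330 CPM in AAV-iIL12 and 0 in AAV-iLuc. Cd79a lay the other way, at 0.487 to 0.543 CPM against 0.572 to 0.987 CPM. The 8 fibroblast and mural markers summed to 57.6 to 156 CPM in AAV-iIL12 libraries, against 83.3 to 289 CPM in AAV-iLuc libraries, with 0 of 7 tested called. The 5 endothelial markers reached at most 0.609 CPM in AAV-iIL12 libraries, against 0.416 CPM in AAV-iLuc libraries, and Cdh5 and Emcn were at 0. The 4 keratinocyte markers reached at most 0.163 CPM in AAV-iIL12 and were at 0 in AAV-iLuc. The part of non-tumour cells in the results that follow was not tested beyond these values. Libraries held 16356653 to 19080587 counts.

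Nearly the whole group was lower in AAV-iIL12 tumours. Of the 48 genes, 45 fell, 1 rose and 2 did not pass (edgeR, adjusted p under 0.05 over 13990 genes), where 23.7% of all tested genes were lower and 23.5% were higher. The median log2 fold change of the 48 was -1.69, against -0.01 over all genes tested. All AAV-iIL12 libraries lay under all AAV-iLuc libraries for 46 of the 48, where 26.7% of tested genes did so. At least a 2-fold fall that passed the test was seen for 38 of the 48, where 4.67% of tested genes showed one. Among the cycle-driven genes 42 of 43 fell, with a median of -1.73. Among the constitutive genes 3 of 5 fell, with a median of -0.24, and 0 fell at least 2-fold. The gene that rose was Pttg1. In bulk RNA, fewer dividing cells and less mitotic RNA per cell cannot be told apart. The balance over all genes depended on scaling: 3292 were higher and 3316 lower with TMM, 2506 and 4460 with plain library size, and 2650 and 4225 with upper quartile scaling. In both other scalings 46 of the 48 mitotic genes fell and 1 rose.

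**Figure D1:**
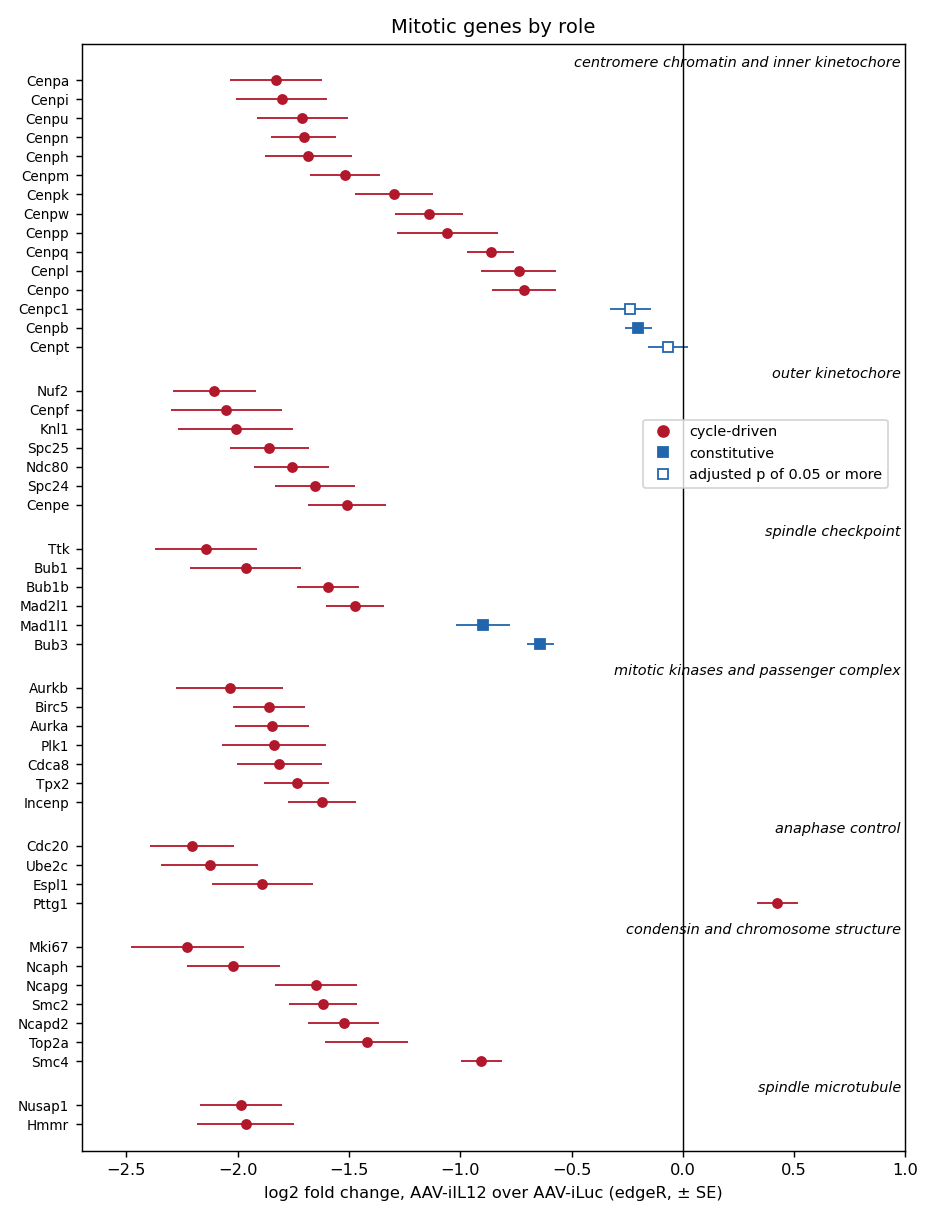
The horizontal axis is the log2 fold change of AAV-iIL12 over AAV-iLuc with its SE from edgeR, for each of the 48 genes grouped by role, with cycle-driven genes as circles and constitutive genes as squares. Cycle-driven genes lie between -2.23 (Mki67) and -0.71 (Cenpo) apart from Pttg1 at 0.42, and constitutive genes lie between -0.90 (Mad1l1) and -0.07 (Cenpt).

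Promoter sequence was examined because so many of these genes were lower together. Many late cell cycle genes are known to carry a CHR element (cell cycle genes homology region), which is bound by MuvB-based complexes, close to CCAAT boxes bound by the factor NF-Y. RefSeq promoter sequences on GRCm38.p6, which run from 250 bases before to 50 after the annotated start, were found for 43 of the 48 genes (38 cycle-driven and 5 constitutive). The letters searched on both strands were TTTGAA and TTCGAA for CHR, CCAAT, and GGCGGGAA for E2F. TTCGAA is its own reverse complement, each start position counted once, and 3 pairs of matches in the windows of these genes overlapped each other. One of the CHR forms was present in 24 of 38 cycle-driven genes (63.2%) and in 1 of 5 constitutive genes (Bub3), against 21.7% of all 27025 genes with a promoter sequence. This comparison set was not limited to genes tested here, whereas all 38 were tested. CCAAT was present in 28 of 38 (73.7%) and 2 of 5, against 41.1% of all genes. CHR and CCAAT occurred together in 22 of 38 (57.9%) and 1 of 5, against 8.61% of all genes. The E2F letters were in 3 of 38 and 1 of 5, against 2.52% of all genes. Within 50 bases of the start on either side, a window chosen after the match positions were seen, 20 of 38 cycle-driven genes (52.6%) held a CHR form, against 6.12% of all genes. The 24 cycle-driven genes with CHR letters had a median log2 fold change of -1.83, and the 14 without had a median of -1.60, with ranges that overlapped (-2.23 to -0.74 and -2.11 to 0.42). For CCAAT the order was the other way, with a median of -1.76 for the 28 genes that held it and -1.81 for the 10 that did not. Neither difference was tested. A match is a description of letters and not a mapped binding site.

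Stretches from 170 bases before to 30 after the start are printed 5′ to 3′ for 6 genes, with matches in capitals. Cdc20, Ttk, Ube2c and Cenpf stand for cycle-driven genes with both CHR and CCAAT, Pttg1 for the cycle-driven gene that rose, and Bub3 for the constitutive gene that holds the same letters.
Cdc20, chr4:118437314-118437513, minus strand: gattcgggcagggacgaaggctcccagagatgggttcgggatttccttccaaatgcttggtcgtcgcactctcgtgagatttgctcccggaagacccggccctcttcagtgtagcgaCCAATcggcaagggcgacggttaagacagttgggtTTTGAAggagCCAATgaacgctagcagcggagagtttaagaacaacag
Ttk, chr9:83834519-83834718, plus strand: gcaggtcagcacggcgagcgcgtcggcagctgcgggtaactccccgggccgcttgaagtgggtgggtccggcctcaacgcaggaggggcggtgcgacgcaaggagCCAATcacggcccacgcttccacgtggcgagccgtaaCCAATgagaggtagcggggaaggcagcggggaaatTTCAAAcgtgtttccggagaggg
Ube2c, chr2:164769759-164769958, plus strand: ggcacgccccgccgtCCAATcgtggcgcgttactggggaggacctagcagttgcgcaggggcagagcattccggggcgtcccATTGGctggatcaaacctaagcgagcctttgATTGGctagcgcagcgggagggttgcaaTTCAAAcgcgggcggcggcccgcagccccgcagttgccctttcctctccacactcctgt
Cenpf, chr1:189688057-189688256, minus strand: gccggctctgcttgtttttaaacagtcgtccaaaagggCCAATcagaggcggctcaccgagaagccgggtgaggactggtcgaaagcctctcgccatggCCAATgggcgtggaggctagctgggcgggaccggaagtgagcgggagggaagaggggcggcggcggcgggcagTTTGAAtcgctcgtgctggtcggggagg
Pttg1, chr11:43425952-43426151, minus strand: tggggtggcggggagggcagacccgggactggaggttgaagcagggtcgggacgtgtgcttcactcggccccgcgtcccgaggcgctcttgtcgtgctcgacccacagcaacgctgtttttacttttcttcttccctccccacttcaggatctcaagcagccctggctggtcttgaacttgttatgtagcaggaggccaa
Bub3, chr7:131560200-131560399, plus strand: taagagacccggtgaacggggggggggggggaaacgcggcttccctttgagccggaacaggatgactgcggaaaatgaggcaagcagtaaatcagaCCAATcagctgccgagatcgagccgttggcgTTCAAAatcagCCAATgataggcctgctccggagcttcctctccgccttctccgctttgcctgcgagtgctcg
In Cdc20 the CHR letters begin at position -18 and lie between CCAAT boxes that begin at -53 and -8. In Ttk the CHR letters begin at 8 after the start, on the opposite strand, downstream of CCAAT boxes at -65 and -28. Cenpf has them at 3, with CCAAT boxes at -132 and -71. No searched letters were found in the Pttg1 window, which was placed on the RefSeq start. That start was not matched to the 5′ end of the counted gene, so letters upstream of the gene may have been missed. The other cycle-driven genes with neither CHR nor CCAAT letters were Nuf2, Ncaph, Nusap1, Birc5, Mad2l1, Cenpp and Cenpo, with log2 fold changes of -2.11, -2.02, -1.99, -1.86, -1.47, -1.06 and -0.71. In Bub3 the CHR letters at -43 lie between CCAAT boxes at -74 and -32, so the arrangement was also present in a gene whose level changed less. Bub3 has another annotated start, from which the same CHR letters begin at -167 and the CCAAT boxes at -198 and -156.

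**Figure D2:**
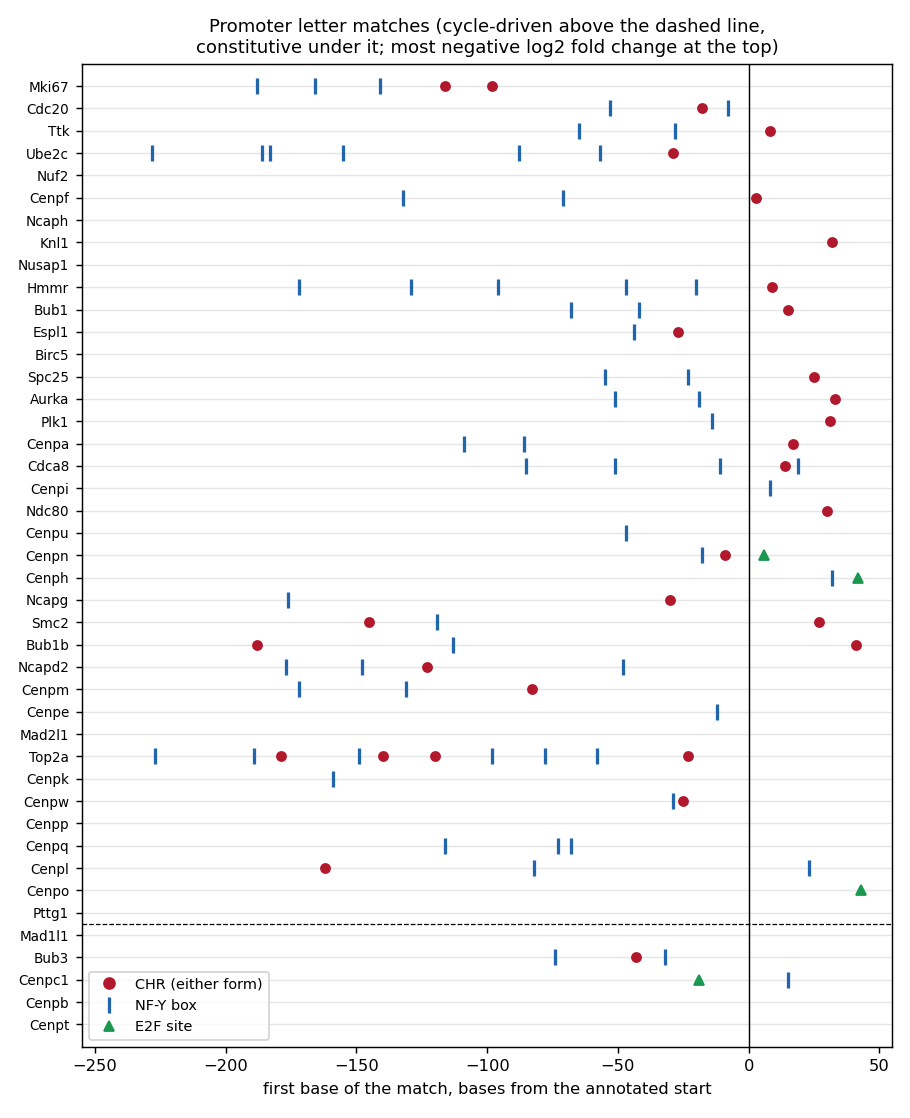
Each row is 1 of the 43 genes with a RefSeq promoter, ordered within its class from the most negative log2 fold change, and the horizontal axis is the distance in bases of each letter match from the annotated start (first listed promoter window of a gene). CHR matches (circles) of cycle-driven genes sit mostly near the start with NF-Y boxes (ticks) upstream. Pttg1 has no mark, and neither do Nuf2, Ncaph, Nusap1, Birc5, Mad2l1 and Cenpp, which fell. The constitutive genes Cenpb, Cenpt and Mad1l1 have none either.

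Genes of centromeric chromatin and the inner kinetochore covered a wide range. Of 15, 13 fell and 2 did not pass, with log2 fold changes from -1.83 to -0.07. Cenpa (chromosome 5, 30824121 to 30832174, GRCm39) encodes the histone H3 variant that marks the centromere. It stood at 10.8, 13.5 and 16.3 CPM in AAV-iIL12, against 49.0, 32.6, 50.6 and 60.6 CPM in AAV-iLuc. Every AAV-iIL12 library was under every AAV-iLuc library, and the log2 fold change was -1.83 ± 0.21 (SE, adjusted p = 7.07e-05). Cenpb (chromosome 2, 131017102 to 131021987) encodes a protein that binds a DNA box in centromeric satellite repeats, and per length it was the most abundant gene of this group. Its level was 196, 222 and 212 CPM in AAV-iIL12, against 238, 250.5, 234 and 243 CPM in AAV-iLuc. The groups did not overlap, but the difference was small, at -0.20 ± 0.06 (adjusted p = 0.0186). The Cenpb call ended without AAV-iIL12 replicate 1 (adjusted p = 0.0724) or replicate 3 (0.0576).

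Cenpc1 (chromosome 5, 86159883 to 86213442), a scaffold that ties centromeric nucleosomes to the outer kinetochore, stood at 19.2, 16.9 and 15.1 CPM in AAV-iIL12, against 21.1, 19.7, 20.1 and 19.4 CPM in AAV-iLuc. The highest AAV-iIL12 library was just under the lowest AAV-iLuc library, and the log2 fold change of -0.24 ± 0.09 did not pass (adjusted p = 0.0580). Cenpc1 passed in limma-voom (adjusted p = 0.0495), with library size only (0.0144), with upper quartile scaling (0.0184) and without AAV-iIL12 replicate 1 (0.0153). Cenpt (chromosome 8, 106571305 to 106579910), which provides another link to the outer kinetochore, stood at 18.6, 15.0 and 16.8 CPM in AAV-iIL12, against 17.6, 16.6, 18.4 and 17.7 CPM in AAV-iLuc. The groups overlapped, and the log2 fold change was -0.07 ± 0.09 (adjusted p = 0.584, and at least 0.186 over the 15 alternative fits). Cenpw, the histone-fold partner of Cenpt, fell by 1.14 ± 0.15 on the log2 scale (adjusted p = 0.000212). Part of the Cenpw transcript occurs at 95% identity or more in transcripts of 9 other genes, the highest of which (Gm29666) held 90 counts over all libraries against 1205 for Cenpw, so its value is uncertain.

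Other subunits of the constitutive centromere-associated network also fell, and differences among them were not tested. In the CENP-H, I, K and M unit, the log2 fold changes were -1.68, -1.80, -1.30 and -1.52. In the CENP-O, P, Q and U unit they were -0.71, -1.06, -0.86 and -1.71. Cenpl and Cenpn, which recognise centromeric nucleosomes as a pair, stood at -0.74 and -1.70. All of these passed the test, the weakest being Cenpl with an adjusted p of 0.00493. Levels were low, since these 10 genes lay between 1.52 and 9.94 CPM in AAV-iIL12 and between 4.77 and 17.6 CPM in AAV-iLuc.

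All 7 outer kinetochore genes fell, each at least 2-fold. Nuf2 (chromosome 1, 169325503 to 169359033) encodes a subunit of the NDC80 complex, the main microtubule binder of the kinetochore. It had 5.06, 9.88 and 8.74 CPM in AAV-iIL12, against 37.2, 28.7, 34.8 and 36.1 CPM in AAV-iLuc. No library of one group came near the other, and the log2 fold change was -2.11 ± 0.19 (adjusted p = 1.59e-05). Spc25 (chromosome 2, 69024239 to 69036538), which anchors the same complex, was the most abundant of these genes per length as a mean over all 7 libraries. In AAV-iIL12 alone Cenpe stood higher, at 2.65 against 2.52 CPM per kilobase. Spc25 had 6.76, 9.56 and 7.80 CPM in AAV-iIL12, against 32.4, 21.6, 28.4 and 34.5 CPM in AAV-iLuc, a log2 fold change of -1.86 ± 0.18 (adjusted p = 2.50e-05). Ndc80 and Spc24, the remaining subunits, had log2 fold changes of -1.76 and -1.65. Knl1, the platform for checkpoint proteins, stood at -2.01, Cenpf at -2.05 and the kinesin gene Cenpe at -1.51. Per kilobase, the ratio of Ndc80 to Nuf2 was 0.960 to 1.13 in AAV-iIL12 libraries and 0.735 to 0.850 in AAV-iLuc libraries, whereas Spc24 over Spc25 overlapped at 0.793 to 1.11 and 0.726 to 0.922.

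All 6 spindle checkpoint genes fell, with log2 fold changes of -2.14 to -1.47 for the 4 cycle-driven genes and of -0.90 and -0.64 for the constitutive ones. Ttk (chromosome 9, 83716742 to 83754442), the MPS1 kinase that starts the checkpoint signal, had 3.23, 4.67 and 4.12 CPM in AAV-iIL12, against 17.7, 11.5, 21.1 and 20.8 CPM in AAV-iLuc. Even the low AAV-iLuc replicate 2 stood above all AAV-iIL12 libraries, and the log2 fold change was -2.14 ± 0.23 (adjusted p = 5.00e-05). Bub1, Bub1b (BubR1) and Mad2l1 (MAD2) had log2 fold changes of -1.96, -1.59 and -1.47. Bub3 (chromosome 7, 131161951 to 131173624), which carries Bub1 and BubR1 to the kinetochore, had 101, 104 and 103 CPM in AAV-iIL12, against 162, 145, 163 and 169 CPM in AAV-iLuc. The AAV-iIL12 libraries were nearly equal, and the fall was smaller but precise, at -0.64 ± 0.06 (adjusted p = 2.35e-05). Mad1l1 (chromosome 5, 139994444 to 140307307), which holds MAD2 at unattached kinetochores, had 16.8, 21.3 and 20.2 CPM in AAV-iIL12, against 34.1, 30.4, 41.6 and 39.0 CPM in AAV-iLuc. The groups were apart, with a log2 fold change of -0.90 ± 0.12 (adjusted p = 2.26e-04).

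Checkpoint proteins that work as partners differed in mRNA ratio between the groups. Per kilobase, Bub1 stood at 0.203, 0.471 and 0.458 of Bub3 in AAV-iIL12, against 0.935, 0.844, 0.932 and 1.08 in AAV-iLuc. Mad2l1 stood at 0.593, 0.602 and 0.662 of Mad1l1 in AAV-iIL12, against 0.983, 0.888, 0.884 and 0.945 in AAV-iLuc. For neither ratio did the groups overlap, and these ratios are given as a description without a test.

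Mitotic kinase genes and their cofactors all fell, with log2 fold changes of the 7 genes between -2.04 and -1.62. Aurkb (chromosome 11, 68936473 to 68942490), the kinase of the chromosomal passenger complex that corrects wrong attachments, had 9.26, 18.7 and 17.4 CPM in AAV-iIL12, against 68.4, 43.5, 61.5 and 76.3 CPM in AAV-iLuc. The log2 fold change was -2.04 ± 0.24 (adjusted p = 9.75e-05), and AAV-iIL12 replicate 1 was the lowest of the 7 libraries. Its partners Birc5 (survivin), Cdca8 (borealin) and the scaffold Incenp had log2 fold changes of -1.86, -1.81 and -1.62. Plk1 (chromosome 7, 121758662 to 121769096), a kinase of mitotic entry and chromosome attachment, was the most abundant of the 7 per length. It had 11.0, 22.6 and 19.1 CPM in AAV-iIL12, against 67.5, 44.4, 64.2 and 75.9 CPM in AAV-iLuc, a log2 fold change of -1.83 ± 0.23 (adjusted p = 1.50e-04). Aurka, the spindle pole kinase, and its activator Tpx2 had log2 fold changes of -1.85 and -1.73.

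**Figure D3:**
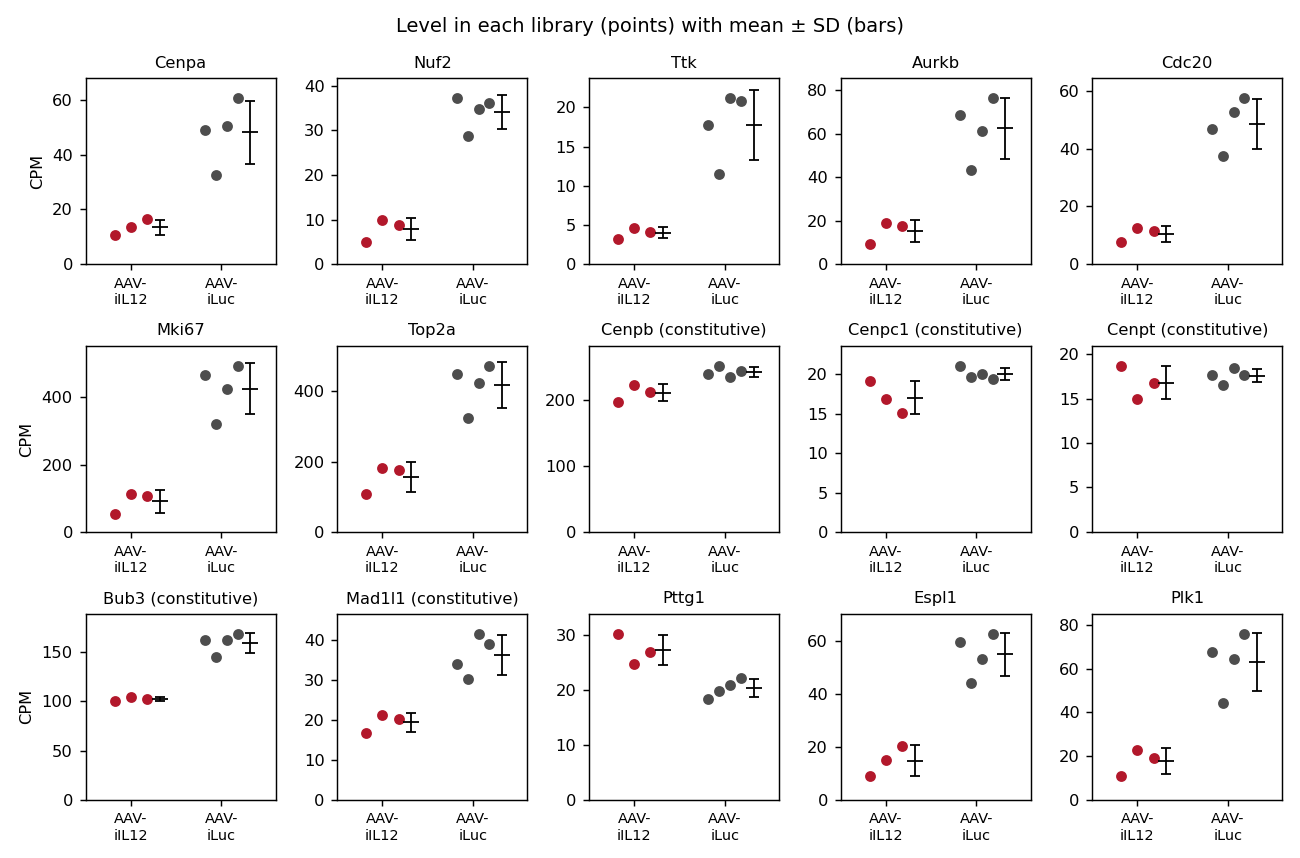
Each panel shows the CPM of 1 gene in the 3 AAV-iIL12 libraries (left) and the 4 AAV-iLuc libraries (right), with the mean ± SD beside the points and an axis that starts at 0. Cycle-driven genes such as Nuf2 and Cdc20 stand far lower in AAV-iIL12, Cenpt overlaps between the groups, and Pttg1 is higher in AAV-iIL12.

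Anaphase control held the single exception. Cdc20 (chromosome 4, 118290098 to 118294549), which activates the anaphase-promoting complex (APC/C), had 7.49, 12.6 and 11.3 CPM in AAV-iIL12, against 46.7, 37.3, 52.8 and 57.4 CPM in AAV-iLuc. As a mean over all 7 libraries it was the most abundant gene of its group per length. In AAV-iIL12 alone Pttg1 stood higher, at 13.6 against 5.61 CPM per kilobase for Cdc20. Cdc20 was also the most lowered gene of its group, with a log2 fold change of -2.21 ± 0.19 (adjusted p = 1.30e-05). Ube2c, the ubiquitin-conjugating enzyme of the same complex, had a log2 fold change of -2.13 ± 0.22 (adjusted p = 3.88e-05). Espl1 (separase), the protease that opens cohesin, had 8.83, 15.2 and 20.3 CPM in AAV-iIL12, against 59.7, 44.3, 53.1 and 62.7 CPM in AAV-iLuc, a log2 fold change of -1.89 ± 0.22 (adjusted p = 9.83e-05). Pttg1 (chromosome 11, 43311077 to 43317078) encodes securin, which holds separase inactive until anaphase. It had 30.2, 24.7 and 26.9 CPM in AAV-iIL12, against 18.4, 19.8, 20.8 and 22.1 CPM in AAV-iLuc. All AAV-iIL12 libraries were above all AAV-iLuc libraries, as in 25.9% of tested genes, and the gene rose by 0.42 ± 0.09 (adjusted p = 0.00380). In the 15 alternative fits its log2 fold change lay between 0.33 and 0.49, with an adjusted p of at most 0.0143. Per kilobase of annotated exon, securin mRNA stood at 14.9, 7.12 and 5.79 times separase mRNA in AAV-iIL12, against 1.35, 1.96, 1.72 and 1.54 times in AAV-iLuc.

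Condensin and chromosome structure genes all fell, 6 of 7 at least 2-fold. Mki67 (chromosome 7, 135291513 to 135318090), the Ki-67 protein that coats mitotic chromosomes and is a common marker of dividing cells, had 52.5, 114 and 107 CPM in AAV-iIL12, against 466, 319.5, 426 and 493 CPM in AAV-iLuc. Its log2 fold change of -2.23 ± 0.25 (adjusted p = 7.36e-05) was the lowest of the 48 and ranked 44 from the bottom of 13990 genes. Top2a (chromosome 11, 98883769 to 98915015), the topoisomerase that untangles sister chromatids, was the most abundant of the 7 per length. It had 108, 182 and 177 CPM in AAV-iIL12, against 449, 324, 423 and 471 CPM in AAV-iLuc, a log2 fold change of -1.42 ± 0.19 (adjusted p = 1.82e-04). The condensin I subunits Ncapd2, Ncapg and Ncaph had log2 fold changes of -1.52, -1.65 and -2.02.

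The ring-forming subunits shared by both condensins had log2 fold changes of -1.62 ± 0.15 for Smc2 and -0.91 ± 0.09 for Smc4, a difference that was not tested. Smc2 had 18.9, 31.1 and 27.6 CPM in AAV-iIL12, against 79.0, 66.8, 84.5 and 88.1 CPM in AAV-iLuc. Smc4 had 68.1, 79.2 and 80.1 CPM in AAV-iIL12, against 151, 121, 142 and 154 CPM in AAV-iLuc. Per kilobase, Smc2 was 0.265 to 0.374 of Smc4 in AAV-iIL12 libraries and 0.496 to 0.565 in AAV-iLuc libraries, without overlap. The spindle genes Nusap1 (chromosome 2, 119448779 to 119481725) and Hmmr (chromosome 11, 40592222 to 40624249), which encode microtubule-binding proteins, both fell. Nusap1 had 7.55, 13.0 and 10.6 CPM in AAV-iIL12, against 44.2, 33.3, 37.9 and 49.9 CPM in AAV-iLuc (-1.99 ± 0.19, adjusted p = 2.29e-05). Hmmr had 8.96, 16.6 and 17.4 CPM in AAV-iIL12, against 59.5, 41.3, 58.6 and 65.2 CPM in AAV-iLuc (-1.96 ± 0.22, adjusted p = 6.40e-05).

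Cycle-driven genes also moved together from mouse to mouse within a group. Their summed level was 669.5, 1050.5 and 1028 CPM in AAV-iIL12, against 3069.9, 2263, 2945 and 3347 CPM in AAV-iLuc. AAV-iIL12 replicate 1 was the lowest of its group for 41 of the 43 genes, and AAV-iLuc replicate 2 was the lowest of its group for 41 of 43. AAV-iLuc replicate 4 was the highest of its group for 34. The same shares were not computed over all genes. Over genes in general AAV-iIL12 replicate 1 also lay apart from replicates 2 and 3, with a chi-square per degree of freedom of 14.1 and 12.0. Replicates 2 and 3 gave 3.49 with each other, and pairs of AAV-iLuc libraries gave 6.92 to 12.4. The constitutive genes summed to 351, 379.7 and 367 CPM in AAV-iIL12, against 473, 462, 477 and 488 CPM in AAV-iLuc, a narrower spread within each group. All 42 falls among cycle-driven genes, and the rise of Pttg1, were called with any single library left out. The median of the cycle-driven genes was -1.59 without AAV-iIL12 replicate 1 and -1.83 without AAV-iLuc replicate 2. Cdkn1a, the p21 inhibitor of cyclin-dependent kinases, had 509, 419.9 and 399.8 CPM in AAV-iIL12, against 469.6, 548, 422 and 432 CPM in AAV-iLuc. It was thus highest in the library of each group in which most cycle-driven genes were lowest, although it did not differ between groups by the test (log2 fold change -0.08 ± 0.11, adjusted p = 0.577), and its part in the result was not tested.

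**Figure D4:**
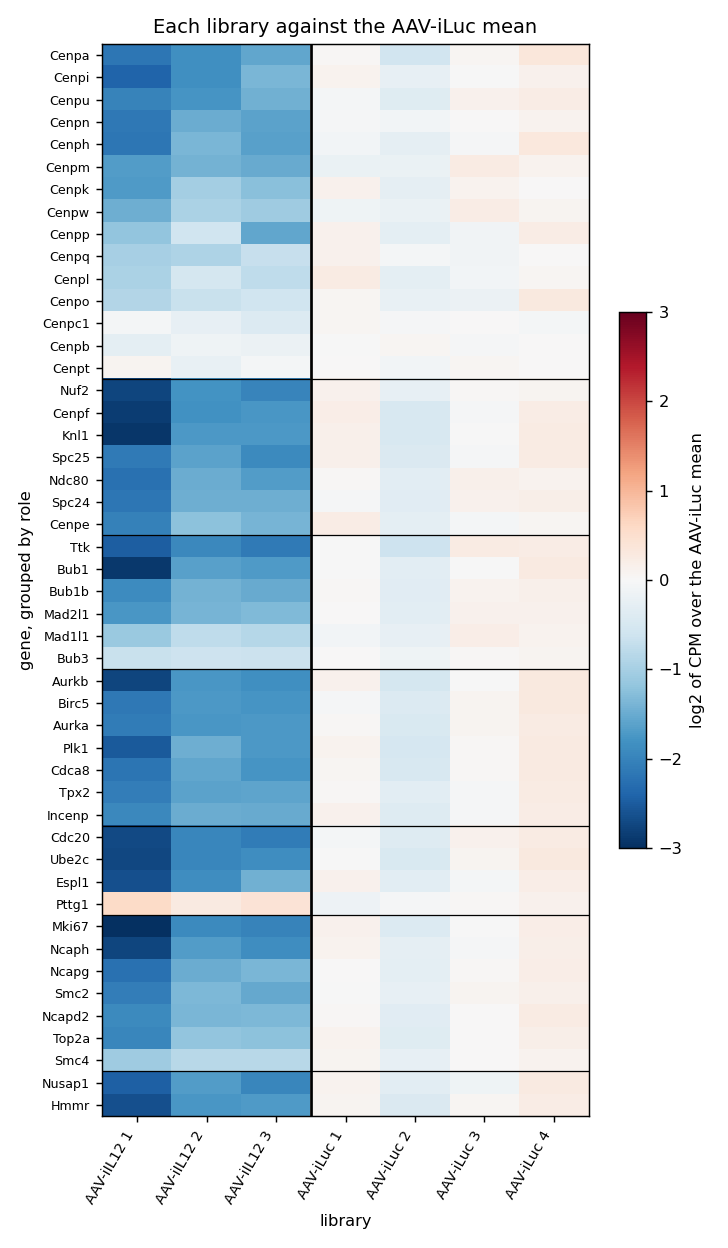
Colour gives the log2 of the CPM of each gene in each library over the AAV-iLuc mean, with AAV-iIL12 libraries to the left of the line and genes grouped by role. AAV-iIL12 replicate 1 is the darkest column, AAV-iLuc replicate 2 is the bluest of its group, and the rows of Cenpb, Cenpc1, Cenpt and Pttg1 stand out from the rest.

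Among 78 partner genes outside the 48, taken from lists of the same machinery, 59 fell, 2 rose and 17 did not pass, with a median log2 fold change of -0.52, where 23.7% of all tested genes were lower and 23.5% were higher. All 8 genes of the cyclin B kinase and its regulators fell, with a median of -1.76. Cdk1, the kinase of mitotic entry, had 18.2, 26.7 and 27.0 CPM in AAV-iIL12, against 86.2, 61.2, 87.1 and 96.1 CPM in AAV-iLuc (-1.78 ± 0.17, adjusted p = 2.80e-05). Its cyclin gene Ccnb1 had 8.59, 17.4 and 16.6 CPM in AAV-iIL12, against 69.8, 47.98, 66.8 and 75.3 CPM in AAV-iLuc (-2.19 ± 0.23, adjusted p = 4.10e-05). All 11 genes of centromere deposition and the MIS12 complex fell (median -1.01), from Nsl1 at -1.80 to Zwint at -0.16. Of the RZZ, SKA and checkpoint partners 11 of 12 fell (median -1.71). The exception was Mad2l1bp, which helps to switch the checkpoint off, at 11.9, 11.2 and 9.50 CPM in AAV-iIL12 against 9.57, 10.3, 11.1 and 11.8 CPM in AAV-iLuc (adjusted p = 0.883). All 3 condensin II genes fell.

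Lists for complexes that also serve outside mitosis had medians nearer to 0. The APC/C list had a median of -0.19, with 10 of 17 lower and 7 not passing, and its lowest member was Fbxo5, an APC/C inhibitor, at -1.68. Anapc13 (0.16), Anapc16 (0.18) and Cdc26 (0.04) had positive log2 fold changes that did not pass. Cohesin genes had a median of -0.33, with 7 of 10 lower, and the lowest was Cdca5 (sororin) at -1.46. Among 17 regulators of mitotic gene transcription, 9 fell, 2 rose and 6 did not pass, and the share that rose was under the 23.5% of all tested genes that were higher. Foxm1 and Mybl2 (B-MYB), activators of late cell cycle genes, were both lower. Foxm1 had 43.0, 61.3 and 65.8 CPM in AAV-iIL12, against 147, 119, 149 and 168 CPM in AAV-iLuc (-1.36 ± 0.15, adjusted p = 6.22e-05). Mybl2 had 3.66, 6.41 and 6.54 CPM in AAV-iIL12, against 19.2, 18.3, 21.6 and 20.5 CPM in AAV-iLuc (-1.84 ± 0.17, adjusted p = 2.08e-05). Pocket proteins, which repress cell cycle genes, did not move as a class, since Rb1 and Rbl2 rose and Rbl1 fell. Rb1 had 59.7, 52.6 and 58.9 CPM in AAV-iIL12, against 36.1, 37.1, 31.6 and 34.8 CPM in AAV-iLuc (0.71 ± 0.07, adjusted p = 4.14e-05). Rbl2 (p130) had 69.7, 63.4 and 65.2 CPM in AAV-iIL12, against 55.8, 59.3, 55.4 and 60.1 CPM in AAV-iLuc (0.20 ± 0.06, adjusted p = 0.0162). Rbl1 (p107) had 41.7, 43.9 and 51.2 CPM in AAV-iIL12, against 63.5, 48.6, 60.04 and 60.7 CPM in AAV-iLuc (-0.35 ± 0.10, adjusted p = 0.0162), and the groups overlapped. Of the MuvB core subunits analysed, Lin9 (-0.37) and Rbbp4 (-0.27) fell, and Lin37 (0.32) and Lin52 (0.16) did not pass. Lin54 of the same core was on the list, but no counted gene was matched to it, so it was not analysed. For the NF-Y subunit genes, Nfya stood at -0.17 and passed, and Nfyb (-0.19) and Nfyc (-0.18) did not pass.

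**Figure D5:**
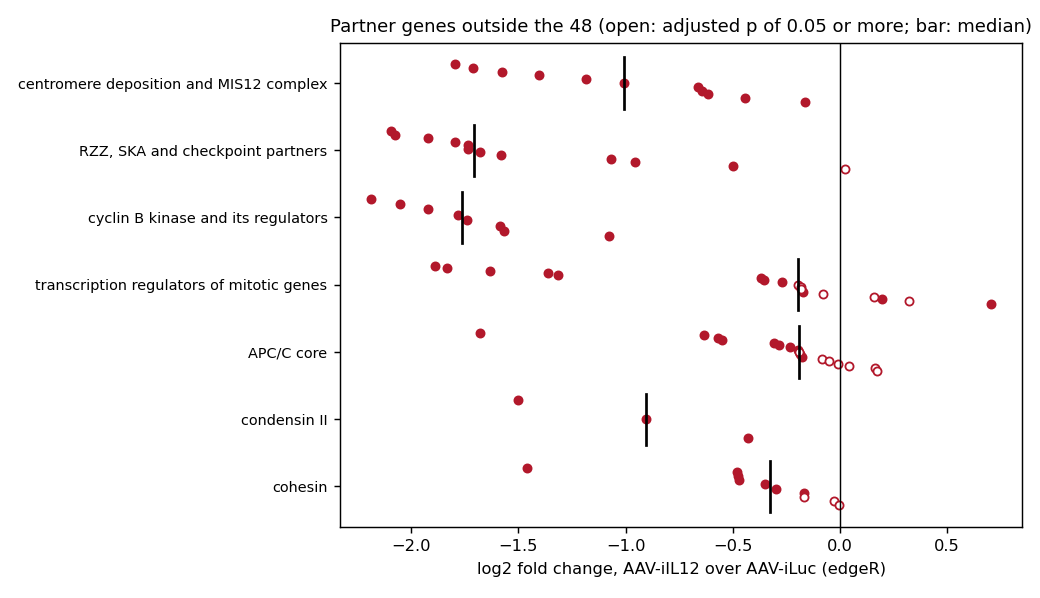
The horizontal axis is the log2 fold change of AAV-iIL12 over AAV-iLuc from edgeR for 78 partner genes, 1 row for each list, with open circles for genes that did not pass and a bar at the median. Medians run from -1.76 for the cyclin B kinase list to -0.19 for the APC/C and transcription regulator lists, and Rb1 at 0.71 lies farthest to the right.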

How the data were processed

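Each file gives unnormalised counts for every gene, which the authors made, per the file headers, with featureCounts 1.6.0 over exons, with reverse-stranded and paired-end settings and GENCODE vM32. FastQC 0.11.8, STAR 2.7.9a and the GRCm39 build are named too, per the submitters' processing notes. No option for multi-mapping reads was set, so near-identical copies may be undercounted. Symbols came from GENCODE vM21 by gene identifier, matching 52029 identifiers with 99.4% of counts. Gene coordinates are those of the files (GRCm39), and promoter coordinates are GRCm38.p6.

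The groups (n = 3 AAV-iIL12, n = 4 AAV-iLuc) were fitted together in edgeR 4.0.16 (R 4.3.3) with the quasi-likelihood F test, TMM scaling (trimmed mean of M values), the filterByExpr filter and Benjamini-Hochberg adjustment over 13990 genes at 0.05. The SE was derived from the F statistic. The test was tested on simulated data. CPM is scaled by TMM, and levels per kilobase divide it by the length of all annotated exons of a gene. The most abundant gene per length is by the mean over all 7 libraries. Ratios and ranks of genes per kilobase depend on that length and do not give ratios of molecules. Near-identical transcripts (at least 95% over 200 bases) were sought with blastn. Besides Cenpw, they were found for stretches of Mki67 (216 bases), Mad2l1 (454 bases) and Ndc80 (303 and 202 bases). The matching genes held 0 counts, so reads from these stretches may also be undercounted.

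The 48 genes, their classes and the partner lists were chosen with earlier results of these data known. Values in every library are given for each constitutive gene, for the most abundant and the most changed gene of each role and for exceptions. Smc2, Smc4 and Espl1 are given in full, and ratios between genes are shown, by a choice made after their values were seen, as are Rbl1, Lin9 and Rbbp4. Alternatives were other scalings, filters and thresholds, DESeq2 1.42.0, limma-voom (limma 3.58.1), a replicate block and each library left out. Within each group, no pair of libraries agreed within counting noise. The labels give no sequencing batch.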

Additional observations from a re-analysis of the deposited data

How the results depend on the processing

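Over 17 alternatives, the 48 genes gave 816 values, of which 801 kept their side of the threshold, 11 lost their call and 4 gained one. Cenpt, which did not pass, did not keep its direction throughout, with log2 fold changes from -0.16 to 0.01 over 15 alternative fits. The calls gained were those of Cenpc1. Of the calls lost, 8 came from asking for an absolute log2 fold change of at least 1, where 0 of the 48 genes were higher (0 cycle-driven), 0 constitutive genes were lower, 31 partner genes were lower and 0 higher, and over all genes 654 were lower and 817 higher. The others were those of Cenpb. The count of partner genes that rose was 1, instead of 2, with library size only, with upper quartile scaling and at an adjusted p under 0.01, and 1 to 3 with single libraries left out. The median of the constitutive genes was -0.33 with library size only, -0.31 with upper quartile scaling, and -0.32 to -0.20 with single libraries left out.

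With the replicate number as a block, 45 of the 48 genes were lower and 1 higher, and 2832 genes rose and 2828 fell over all genes. Same-numbered libraries did not deviate together (correlations of 0.0876, 0.0337 and -0.0485), so the numbers were not taken as pairs. In the shorter promoter window, from 150 bases before the start, CHR letters were in 60.5% of cycle-driven genes against 13.7% of all genes. With 3 and 4 mice a group, differences of the size seen for Cenpt could not be resolved. DESeq2 gave every one of the 48 genes the same call as edgeR, and limma-voom added Cenpc1.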
